A study of Mus musculus with 2 samples.

Results

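The genes described here carry pyruvate into the mitochondrion and run the citric acid cycle. They are 36 genes, listed by name, of the 18111 annotated genes with a read in either library: the pyruvate carrier, pyruvate dehydrogenase with its kinases and phosphatases, the enzymes that refill or drain the cycle, most enzymes of the cycle itself, and the enzymes that link it to glutamate and aspartate. Succinate dehydrogenase, also a step of the cycle, was not among the 36 and is given near the end. All rows of both transcript tables that carried one of these gene names were summed, so that a gene's reads include complete and incomplete transcripts.

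The RNA came from whole adrenal glands of female mice aged 14 days, of the B6CASTF1/J hybrid, the first generation of a cross of C57BL/6 with CAST. It was sequenced as full-length cDNA with long reads, in 2 libraries labelled biological replicates 1 and 2 of 1 group, so no treatment, control or other genotype enters any comparison. The labels are not clear on pooling: the tissue name of replicate 1 mentions 3 females, that of replicate 2 only 1 female, and both libraries carry a description with 3 females and the same donor entry. Replicate 1 held 1065570 reads in annotated genes and replicate 2 held 946553, and values are given as CPM, a gene's reads scaled to a common total of gene reads.

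Pyruvate, the end product of glycolysis, crosses the inner mitochondrial membrane through a carrier built of Mpc1 and Mpc2. The pyruvate dehydrogenase complex turns it into acetyl-CoA and is switched off by its kinases and on by its phosphatases, while pyruvate carboxylase (Pcx) instead makes oxaloacetate, which refills the cycle. The cycle oxidises acetyl-CoA and supplies NADH to the respiratory chain. In the steroid-making cells of the adrenal cortex, mitochondria also need NADPH for the cytochrome P450 enzymes they hold, and isocitrate dehydrogenases and malic enzymes are among its sources.

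For 2 of the genes with enough reads to rank their transcripts, Idh3g and Mpc1, the most common chain of exons was not an annotated transcript, and in both the difference lay at a very short exon. The letters around the site are shown because the whole difference is a few bases. They were read from the GENCODE M21 transcripts on mm10 (the files hold exon coordinates of the reads, not their bases), run 5′ to 3′ along the transcript, give 20 bases of the exon on each side in lower case, and give in capitals what lies between.
Idh3g-201, annotated: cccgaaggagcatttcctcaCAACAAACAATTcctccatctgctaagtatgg
Idh3g leading chain, NNC: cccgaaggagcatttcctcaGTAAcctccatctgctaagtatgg
Idh3g second chain, NIC: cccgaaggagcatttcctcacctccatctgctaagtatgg
Mpc1-208, annotated: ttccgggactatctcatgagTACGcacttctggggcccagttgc
Mpc1-201, annotated: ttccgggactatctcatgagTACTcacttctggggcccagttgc
Mpc1 leading chain, NIC: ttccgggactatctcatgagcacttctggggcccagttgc
Mpc1-ps, pseudogene: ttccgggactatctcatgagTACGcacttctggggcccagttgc

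Idh3g encodes the gamma subunit of the NAD-dependent isocitrate dehydrogenase and lies on the minus strand of chromosome X. The exon in capitals in Idh3g-201 is 12 bases long, is coding, and spans chrX:73782298-73782309. Neither of the chains that reached 10% of the gene's complete reads in both libraries held it. Complete reads are those on multi-exon models of class Known (an annotated transcript), NIC or NNC. The leading chain had 360 of 464 such reads in replicate 1 (77.6%, exact Clopper-Pearson 95% interval 73.5 to 81.3%) and 300 of 396 in replicate 2 (75.8%, 71.2 to 79.9%). It is of class NNC, a chain with at least 1 unannotated splice site: exon 2 runs over chrX:73782671-73782716 and is 46 bases long, 4 more than the annotated 42. The added bases, GTAA, are the start of the annotated intron, and the shifted site is again followed by the letters GT. The second chain, of class NIC, the class for unannotated combinations of annotated sites, joined the annotated exon 2 straight to exon 4 and had 61 reads (13.1%) and 57 reads (14.4%). Each of its introns, that from exon 2 to exon 4 included, is annotated, and only their combination is not. The order and the shares of both chains thus repeated in the libraries within counting error. Read from the start codon of Idh3g-201, the annotated frame holds 393 codons before the stop. The second chain keeps the frame with 389 codons, and the leading chain meets a stop after 46. Whether the reads themselves hold the 12 bases was not tested, because the files give only where the exons were placed.

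Mpc1, on the plus strand of chromosome 17, showed the same arrangement. Of its annotated transcripts, 4 put a 4-base coding exon between the first and the next long exon, either at chr17:8293415-8293418 with the letters TACG, as in Mpc1-208, or at chr17:8296527-8296530 with the letters TACT, followed by a gap of only 4 bases, as in Mpc1-201. The leading chain had neither: it placed a single intron over chr17:8283962-8296534. This chain, of class NIC, had 252 of 262 complete reads in replicate 1 (96.2%, 93.1 to 98.2%) and 257 of 267 in replicate 2 (96.3%, 93.2 to 98.2%). Annotated Mpc1 transcripts had 1 read in replicate 1 and 4 in replicate 2. With the 4-base exon the frame holds 109 codons, and without it a stop follows after 42. Whether the Mpc1 reads themselves hold these 4 bases was not tested, because only the placement of their exons is given.

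A copy of Mpc1 without introns bears on these reads. Mpc1-ps, a processed pseudogene on the minus strand at chr12:110858565-110858894, is 99.7% identical to Mpc1-208 over its 330 bases, with 1 mismatch and no gap, and so holds the 4 bases TACG in place, as printed above. Its own reads numbered 20 in replicate 1 and 207 in replicate 2. The gene Mpc1 itself had 264 and 268. Reads of a transcript and of a copy this close cannot be assigned with certainty by counting alone. With the pseudogene's reads added, a reading chosen after these values were seen, Mpc1 had 284 and 475 reads and moved from a log2 ratio of 0.19 with no call to 0.91 (adjusted p = 2.56e-16, exact binomial test).

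Of 13 processed pseudogenes that match a member at 90% identity or more over at least 50% of their length, 3 had a read and 2 had at least 20 summed reads. The other one above 20 was Got2-ps1, 99.1% identical to Got2-201, with 8 and 28 reads beside 62 and 114 for Got2, the mitochondrial aspartate aminotransferase. Adding them moved the log2 ratio of Got2 from 1.04 to 1.19 and left it called.

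**Figure D1:**
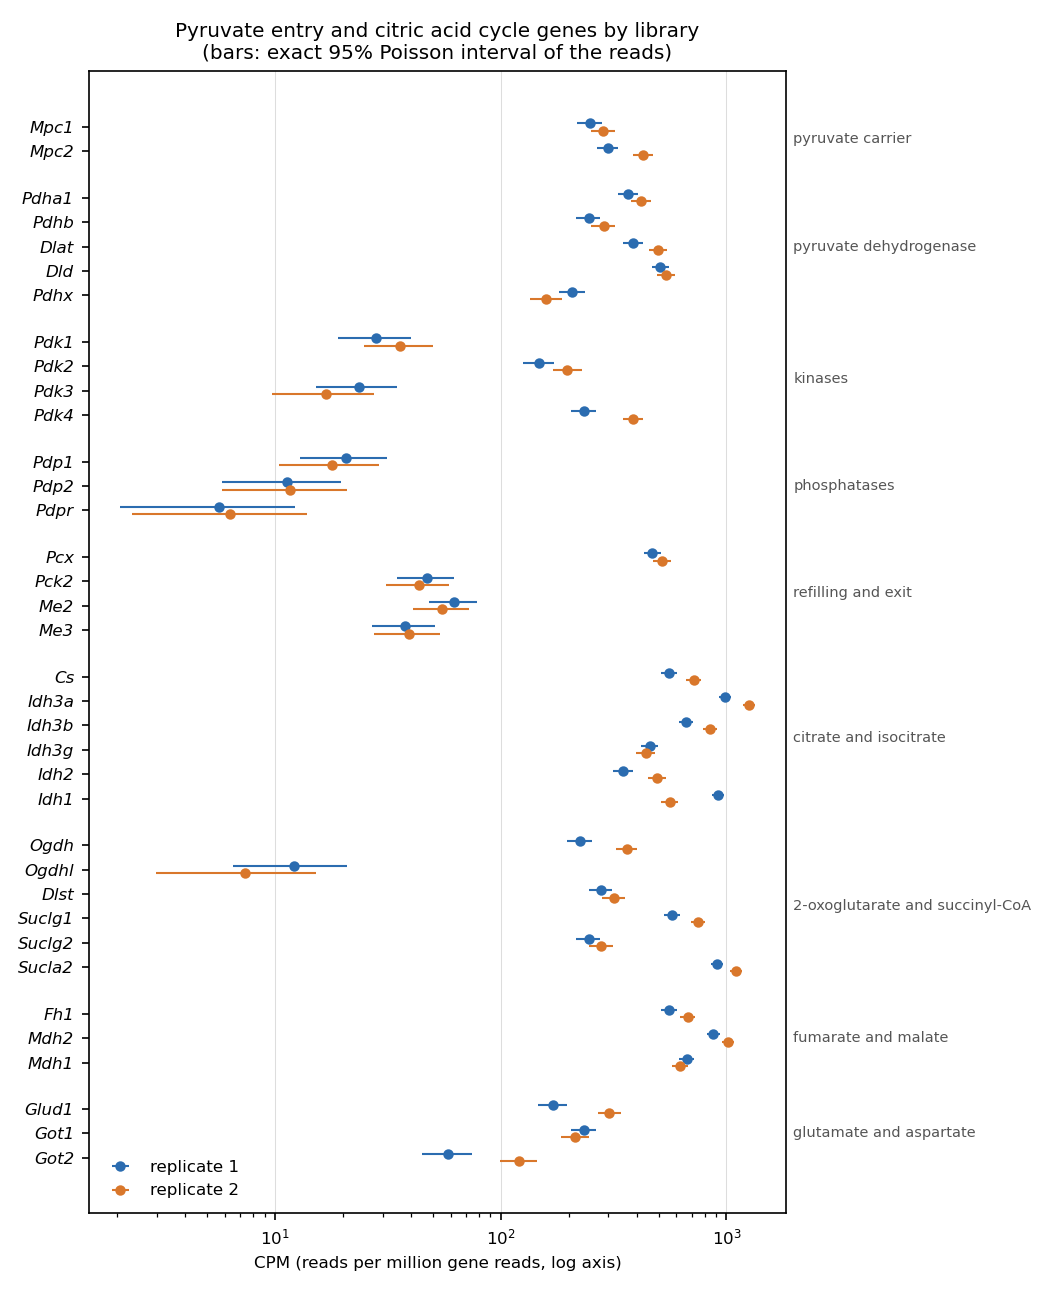
CPM of each of the 36 genes (log axis) in replicate 1 (blue) and replicate 2 (orange), grouped by role, with exact 95% Poisson intervals of the reads. The cycle enzymes fill the right side up to Idh3a at 1258 CPM in replicate 2, and the phosphatases, Ogdhl, Pdk1 and Pdk3 sit on the left.

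No member was at 0 in either library. Together the 36 genes held 12865 reads in replicate 1, 1.21% of gene reads (1.19 to 1.23%), and 13262 in replicate 2, 1.40% (1.38 to 1.42%), a mean of 1.30% ± 0.137 (SD, n = 2). Each count is a whole long read, so the genes are ordered by CPM, with CPM per kb beside it. The highest in CPM were Idh3a with 1121 ± 194 (mean ± SD, n = 2), Sucla2 with 1008 ± 138 and Mdh2, mitochondrial malate dehydrogenase, with 945 ± 101. Next came Idh3b with 753 ± 128, Idh1 with 740 ± 254 and Suclg1 with 661 ± 122. Divided by the mean length of each gene's read models, Mdh2 had 657 CPM per kb, Idh3b 607, Sucla2 464, Suclg1 456 and Idh3a 446. The division by length changed the place of 29 of the 36 genes. Model lengths can also differ between libraries, as in Mpc1 with a mean of 1765 bases in replicate 1 and 953 in replicate 2. Neighbours in the order per kb from Sucla2 to Idh3a did not differ beyond their spread over the libraries. At the low end stood Pdpr, the regulatory subunit of the phosphatase, with 5.98 CPM and 6 reads in each library, next to Ogdhl with 9.80 and Pdp2 with 11.4 CPM. Per kb Pdpr had 1.04, Pdp2 2.98 and Ogdhl 3.13 CPM per kb.

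Replicate 2 differed from replicate 1 in more than these genes. Hepatocyte markers rose from 0.110% of the reads to 8.36%, with 14 of 14 called higher and Tat at 0 in replicate 1. Skeletal muscle markers went from 0.0069% to 0.203%, with 7 of 7 tested called higher and Myh1 and Tnnt3 at 0 in replicate 1. Cortex markers went from 6.56% to 2.72% (10 of 10 lower), chromaffin markers from 1.31% to 0.509% (8 of 9 lower) and erythroid markers from 1.13% to 0.362% (5 of 5 lower), none of them at 0. With ERCC reads as the scale, 9 of 10, 6 of 9 and 5 of 5 were lower. Adipocyte markers (0.732% and 0.832%), endothelial markers (0.0758% and 0.0618%) and leukocyte markers (0.0135% and 0.0217%) stayed closer in share but were not unchanged. Of the adipocyte markers 2 of 6 were higher, Ucp1 by 0.45 and Cidea by 0.34 on the log2 scale, and 5 of 6 with TMM factors. Of the endothelial markers 1 of 5 was lower, and of the leukocyte markers 1 of 3 tested was higher. With ERCC reads 6 of 6, 3 of 5 and 3 of 3 were higher. In bulk tissue, fewer cells of a type and less RNA per cell cannot be told apart. The part of liver and muscle RNA in the values below was not tested beyond the scaling without their markers, and that of adipocyte RNA was not tested.

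Each gene was compared between the libraries with an exact conditional binomial test, two-sided, with Benjamini-Hochberg adjustment over the 9211 genes with at least 20 summed reads. This test covers counting error only and compares these libraries, not mice. Of the 36 genes 35 were tested (Pdpr had too few reads): 15 were higher in replicate 2, 2 were lower, and 18 were not called. Over all genes tested 26.4% were called, 8.58% as higher and 17.9% as lower. The median log2 ratio of the 35 was 0.19, against -0.28 over all genes, and 25 of 35 were above 0, against 31.6% of all genes. Most differences were small: 29 of 35 lay within 1.5-fold, against 62.2% of all genes. Depth enters these comparisons and was not matched. Of the 36 genes 28 had at least 100 summed reads, while the genes tested start at 20. With a minimum of 50 summed reads, 17 of 31 members and 2254 of 6220 genes were called.

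The number of calls depended on the scaling. With TMM factors 22 were higher and 1 lower (18.8% of all genes called, 11.9% higher and 6.98% lower), and with ERCC spike-in reads 26 were higher and 0 lower (24.3%, 22.5% and 1.85%). The median of all genes was then -0.03 and 0.31, and that of the 35 genes 0.44 and 0.78. With complete transcripts only (classes Known, NIC and NNC), 15 of 33 were higher and 2 lower (26.8%, 9% and 17.8%). With an assumed coefficient of variation between libraries set to 0.2, edgeR's exact test called 0 of 35, 1 of them at an unadjusted p under 0.05, and 513 genes in all.

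**Figure D2:**
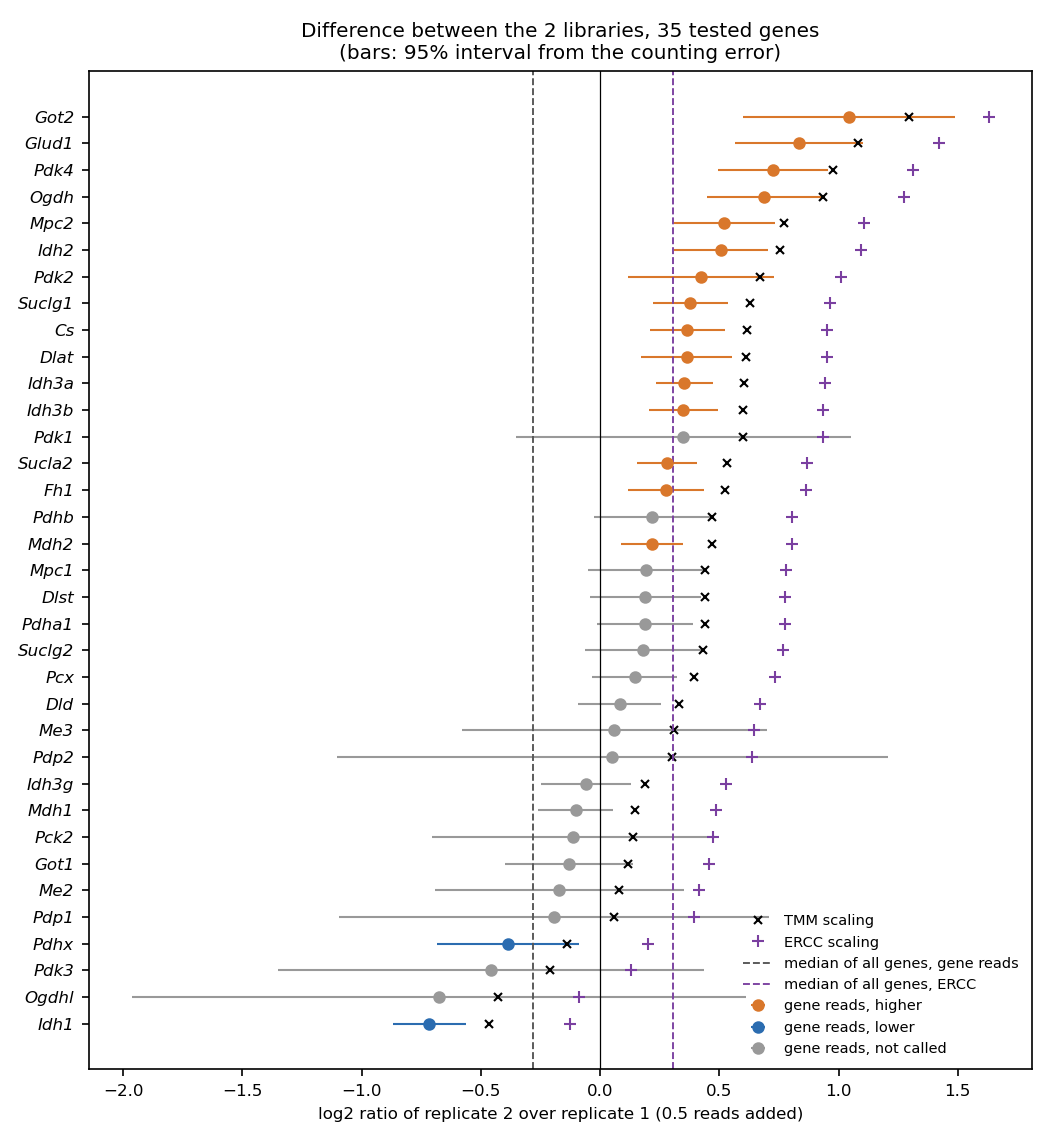
Log2 ratio of replicate 2 over replicate 1 for the 35 tested genes, sorted, with 95% intervals from the counting error for scaling by gene reads (circles) and the same ratios under TMM (crosses) and ERCC scaling (plus signs). Dashed lines mark the median of all genes, -0.28 with gene reads and 0.31 with ERCC reads. Got2, Glud1, Pdk4 and Ogdh stand at the top and Idh1 at the bottom. A change of scaling moves all ratios by the same amount, so the order cannot differ between the 3.

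Of the pyruvate carrier's subunits, Mpc1 had 248 and 283 CPM and was not called by its own reads (log2 ratio 0.19). Mpc2 had 317 reads (297 CPM) in replicate 1 and 404 (427 CPM) in replicate 2 and was higher by 0.52 on the log2 scale (SE 0.108, adjusted p = 1.47e-05, exact binomial test). Mpc2 held 54.6% of the reads of the pair in replicate 1 (50.4 to 58.7%) and 60.1% in replicate 2 (56.3 to 63.8%). As the Mpc1 count leaves out the pseudogene's reads, this share is uncertain in replicate 2.

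Within pyruvate dehydrogenase, Pdha1 and Pdhb form the first enzyme, Dlat is the acetyl-transferring core, Dld the shared lipoamide dehydrogenase, and Pdhx the protein that ties Dld to the core. Dld had 510 and 540 CPM, Dlat 386 and 497, Pdha1 367 and 418, and Pdhb 245 and 285. Pdhx had 221 reads (207 CPM) and 150 reads (158 CPM) and was the lowest of the 5 in both libraries. It was also the lowest per kb, with 73.5 CPM per kb against 208 for Dld. Dlat was higher in replicate 2 (log2 ratio 0.36, adjusted p = 0.0014, exact binomial test) and Pdhx lower (-0.39, adjusted p = 0.0423), and the other 3 were not called. The call on Pdhx was lost under TMM scaling (-0.14) and the ratio was 0.20 with ERCC reads.

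The kinases phosphorylate and switch off the complex, and the phosphatases reverse this. In mean CPM, Pdk4 (310) and Pdk2 (172) stood above Pdp1 (19.3), Pdp2 (11.4) and Pdpr (5.98), with Pdk1 (32.0) and Pdk3 (20.2) between. Per kb the order was the same, except that Pdk3 (9.57 CPM per kb) and Pdk1 (6.596) changed places. Pdk4, known as the kinase that responds to fasting and glucocorticoids, had 249 reads (234 CPM) and 366 reads (387 CPM) in the libraries. It was higher by 0.73 (SE 0.118, adjusted p = 1.04e-08, exact binomial test). Pdk2, the widely expressed kinase, had 157 and 187 reads and was higher by 0.42 (adjusted p = 0.0295), a call lost when only complete transcripts were counted (0.34). Pdk1 had 30 and 34 reads and Pdk3 25 and 16. Pdk4 thus made up 54.0% (49.3 to 58.6%) and 60.7% (56.7 to 64.6%) of kinase reads and Pdk2 34.1% and 31.0%, an order that held in both libraries. Among the phosphatases, Pdp1 had 22 and 17 reads and Pdp2 12 and 11, and neither was called. Over Pdp2 the opposite strand held 79 and 81 unspliced reads, more than the gene itself.

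Of the genes that refill or drain the cycle, Pcx was the highest, with 500 reads (469 CPM) and 491 reads (519 CPM). Its mean was 494 CPM, against 38.3 to 58.4 for the other 3, and 158 CPM per kb, against 9.98 to 22.4. Me2, a mitochondrial malic enzyme that makes NADH and pyruvate from malate, had 66 and 52, Pck2, the mitochondrial enzyme that makes phosphoenolpyruvate, 50 and 41, and Me3, the NADP-dependent mitochondrial malic enzyme, 40 and 37. None of these 4 was called by total reads. Counting only complete transcripts (classes Known, NIC and NNC), Pcx was called higher in replicate 2, by 0.51.

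Citrate synthase (Cs), which joins acetyl-CoA to oxaloacetate, had 592 reads (556 CPM) and 678 reads (716 CPM), a log2 ratio of 0.37 (SE 0.0811, adjusted p = 6.28e-05, exact binomial test). The NAD-dependent isocitrate dehydrogenase is built of Idh3a, Idh3b and Idh3g. Idh3a had 984 and 1258 CPM and Idh3b 663 and 844, both higher by 0.35 (adjusted p = 1.01e-07 and 2.86e-05, exact binomial test), while Idh3g had 457 and 438 and was not called (-0.06). Idh3g accordingly held 21.7% of the reads of the 3 subunits in replicate 1 (20.0 to 23.5%) and 17.3% in replicate 2 (15.8 to 18.8%), intervals that do not overlap.

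The NADP-dependent isocitrate dehydrogenases were called in opposite directions. Idh1, the cytosolic and peroxisomal form, had 980 reads (920 CPM) in replicate 1 and 530 (560 CPM) in replicate 2. It had the lowest ratio of the 35 genes (log2 ratio -0.72, SE 0.0778, adjusted p = 2.05e-19, exact binomial test), though only -0.13 and not called with ERCC reads. Idh2, the mitochondrial form, had 370 reads (347 CPM) and 467 (493 CPM) and was higher by 0.51 (SE 0.100, adjusted p = 4.62e-06). Idh1 held 72.6% of the pair in replicate 1 (70.1 to 75.0%) and 53.2% in replicate 2 (50.01 to 56.3%). As a share of reads within a library it does not depend on the scaling, though it is not corrected for transcript length.

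2-Oxoglutarate dehydrogenase is made of Ogdh, Dlst and Dld. Ogdh had 224 CPM and 361 CPM and was higher by 0.69 (SE 0.122, adjusted p = 1.86e-07, exact binomial test), and Dlst, its succinyl-transferring core, had 277 and 316 CPM and was not called. Ogdhl, the related gene known mainly from brain, had 13 and 7 reads. Succinyl-CoA ligase pairs the alpha subunit Suclg1 (574 and 747 CPM, log2 ratio 0.38) with a beta subunit that fixes which nucleotide is made, Sucla2 for ATP (910 and 1106 CPM, 0.28) or Suclg2 for GTP (245 and 278 CPM, not called). Sucla2 held 78.8% (76.4 to 81.1%) and 79.9% (77.7 to 82.1%) of beta subunit reads, equal within counting error.

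Fumarate hydratase (Fh1) had 592 reads (556 CPM) and 637 (673 CPM), a log2 ratio of 0.28 (adjusted p = 0.0049, exact binomial test). Mdh2 had 874 and 1016 CPM (0.22, adjusted p = 0.0062) and the cytosolic Mdh1 667 and 621 CPM with no call, so that Mdh2 held 56.7% (54.3 to 59.1%) of the pair in replicate 1 and 62.1% (59.6 to 64.5%) in replicate 2. Mdh1 and Mdh2, with the aspartate aminotransferases Got1 and Got2, form the malate-aspartate shuttle that carries reducing equivalents into mitochondria.

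Glud1, glutamate dehydrogenase, and Got2 had the largest ratios above 0. Glud1 had 181 reads (170 CPM) and 287 (303 CPM), higher by 0.83 (SE 0.137, adjusted p = 1.16e-08, exact binomial test). Got2 had 62 reads (58.2 CPM) and 114 (120 CPM), higher by 1.04 (SE 0.227, adjusted p = 2.42e-05), and the cytosolic Got1 had 234 and 213 CPM with no call. Got2 held 19.9% of the aminotransferase pair in replicate 1 (15.6 to 24.8%) and 36.1% in replicate 2 (30.8 to 41.6%).

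**Figure D3:**
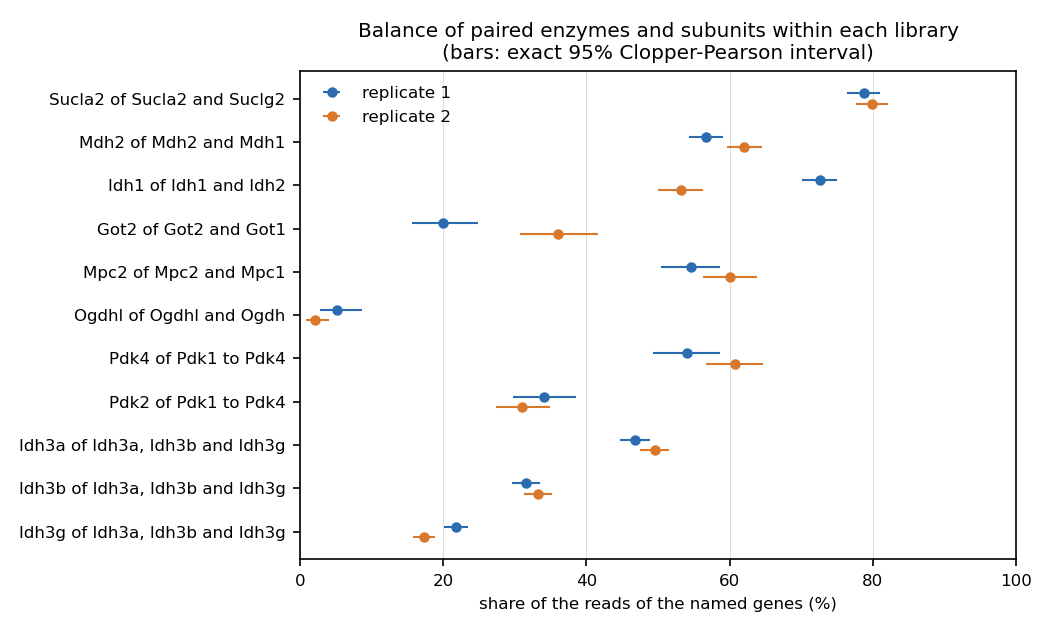
Share of reads held by the first named gene among paired enzymes or subunits in replicate 1 (blue) and replicate 2 (orange), with exact 95% Clopper-Pearson intervals. Sucla2 stays at 78.8 and 79.9%, while Idh1 moves from 72.6 to 53.2% and Got2 from 19.9 to 36.1%.

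Of the reads of all 36 genes, 80.9% in replicate 1 (80.2 to 81.6%) and 82.5% in replicate 2 (81.9 to 83.2%) were on Known transcripts, against 76.1% and 78.2% over all annotated genes. ISM reads, which match only part of an annotated chain, made up 8.64% and 8.25%, against 10.7% and 10.6%. NNC reads made up 4.91% and 4.22% against 3.30% and 3.10%. Without Idh3g and Mpc1 the NNC share was 2.16% and 2.01% and the NIC share 1.63% and 1.54%, so these 2 genes held most of the unannotated reads. Incomplete reads were concentrated in a few genes: Pcx had 235 ISM reads of 500 in replicate 1 and 151 of 491 in replicate 2, Ogdh 121 of 239 and 144 of 342, and Idh3b 209 of 706 and 241 of 799. In Idh3b, 174 and 203 of them had a single exon.

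**Figure D4:**
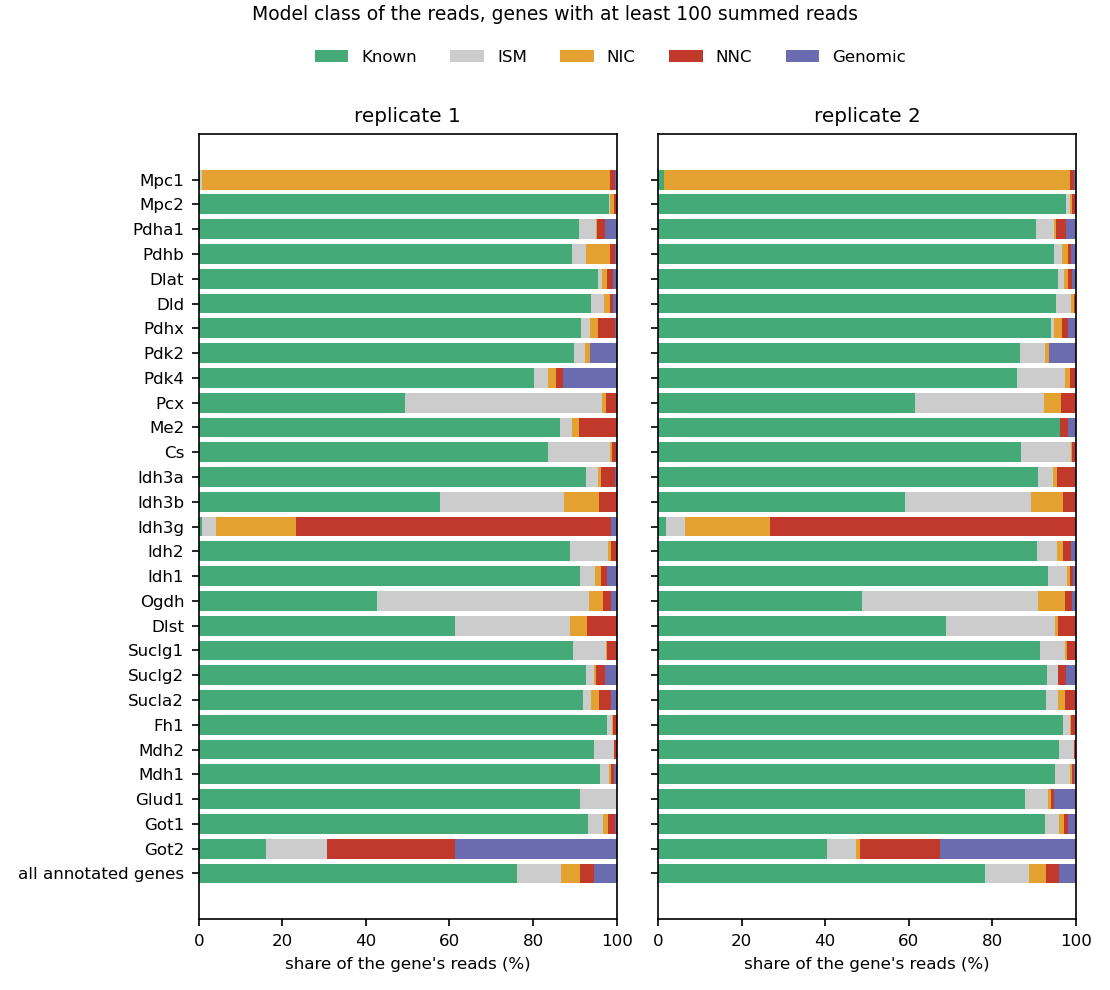
Share of each gene's reads on Known, ISM, NIC, NNC and Genomic models in replicate 1 (left) and replicate 2 (right), for the genes with at least 100 summed reads and, in the bottom row, all annotated genes. Mpc1 (NIC) and Idh3g (NNC) stand apart in both libraries, Pcx and Ogdh are rich in ISM reads, and Got2 is split between classes.

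By reads summed over both libraries, a Known transcript led 33 of the 36 genes. Besides Idh3g and Mpc1 the exception was Pdpr, with a NIC chain of 2 reads in each library. In replicate 1 alone Got2 was also led by an unannotated chain, of class NNC, with 18 of 29 complete reads (62.1%) against 10 for Got2-201. Over all genes with 20 complete reads in each library, 173 of 5076 (3.41%) were led by an unannotated chain, and 2 of the 31 members at that depth were. In 22 genes the leading transcript held over 90% of complete reads in both libraries, for example Mdh2-201 with 99.2% and 99.5%, Cs-201 with 98.2% and 98.7%, and Dld-201 with 97.7% and 98.8%.

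Among transcripts with at least 5 summed reads and apart from Idh3g, a second one reached 10% of complete reads in both libraries in Fh1, Pdp1 and Got2. Fh1-203, an annotated retained-intron transcript that holds the gene's last exons, had 111 of 585 complete reads in replicate 1 (18.97%, 15.9 to 22.4%) and 121 of 626 in replicate 2 (19.3%, 16.3 to 22.6%), beside Fh1-201, the full coding transcript, with 79.3% and 78.9%. The introns of Fh1-203 are also the last introns of Fh1-201, so a read of Fh1-201 cut short at its 5′ end could match either. Whether the reads on Fh1-203 hold the retained intron was not tested. Pdp1 split between Pdp1-203 (13 and 8 reads) and Pdp1-205 (5 and 6), which differ in the first exon, at counts too low to compare the libraries.

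In Idh3b the alternatives lay at the 3′ end. Idh3b-201 had 408 of 497 complete reads (82.1%) and 472 of 558 (84.6%). A NIC chain with a further intron in the last exon, chr2:130279438-130279555, had 37 and 36 reads and leaves the frame of 384 codons as it is. Another NIC chain joined the next-to-last exon to that intron's far end, over chr2:130279438-130280262. It had 21 and 23 reads and a frame of 380 codons. An NNC chain with the intron chr2:130279438-130279526 had 16 and 12. The shares of these 3 chains (7.44 and 6.45%, 4.23 and 4.12%, 3.22 and 2.15%) had overlapping intervals in the libraries.

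Leading shares were compared between the libraries with Fisher's exact test over 2969 genes, of which 34 (1.15%) were called. Of the 20 members tested 1 was called, Pcx. Pcx-201 had 247 of 264 complete reads in replicate 1 (93.6%, 89.9 to 96.2%) and 277 of 340 in replicate 2 (81.5%, 76.9 to 85.5%), with an adjusted p of 0.0016 by Fisher's exact test. With ISM reads added to the total the shares were 65.0% and 65.5% and the call was lost. At unadjusted p under 0.05 stood also Pdhb (91.2% and 96.9%), Dlst (81.8% and 92.8%) and Got2 (34.5% and 66.7%), with adjusted p of 0.285, 0.0655 and 0.193 by Fisher's exact test.

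**Figure D5:**
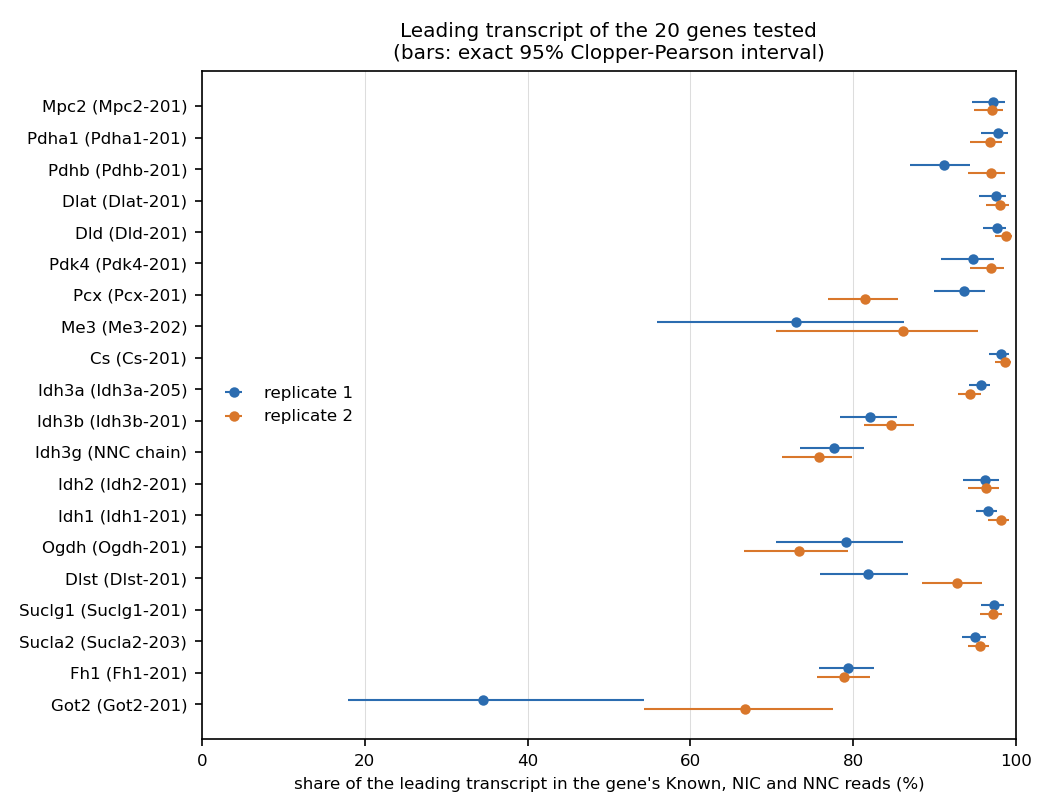
Share of the leading transcript among a gene's complete reads in replicate 1 (blue) and replicate 2 (orange) for the 20 genes tested, with exact 95% Clopper-Pearson intervals. Pcx-201 drops from 93.6 to 81.5%, and the widest interval is that of Got2-201 in replicate 1 and of Me3-202 in replicate 2.

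The shift in Pcx was a change of first exon. The distal first exon of Pcx-201, at chr19:4510472-4510581, opened 260 of 264 complete reads in replicate 1 (98.5%) and 288 of 340 in replicate 2 (84.7%, 80.4 to 88.4%). The first exon of Pcx-202, at chr19:4594346-4594442, opened 0 of 264 reads (0%, 0 to 1.39%) and 25 of 340 (7.35%, 4.81 to 10.7%). The adjacent first exon of Pcx-207, at chr19:4594408-4594460, opened 1 of 264 and 17 of 340 reads. The reads from these proximal starts were thus all in replicate 2 but for 1, and replicate 2 is the library with 8.36% of reads on hepatocyte markers against 0.110%. The part of liver RNA in this was not tested.

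The 250 bases before each start as RefSeq places it (GRCm38.p6, plus strand) are printed because the libraries differ in the use of these starts. Capitals mark CCAAT and GGGCGG on either strand, and TATAAA was searched as well.
Pcx distal promoter, chr19:4510222-4510471: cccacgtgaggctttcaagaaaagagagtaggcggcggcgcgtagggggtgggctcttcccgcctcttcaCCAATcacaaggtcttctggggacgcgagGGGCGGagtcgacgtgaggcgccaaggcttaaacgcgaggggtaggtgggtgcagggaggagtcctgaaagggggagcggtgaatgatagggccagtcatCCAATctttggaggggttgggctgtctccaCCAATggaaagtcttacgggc
Pcx proximal promoter, chr19:4594069-4594318: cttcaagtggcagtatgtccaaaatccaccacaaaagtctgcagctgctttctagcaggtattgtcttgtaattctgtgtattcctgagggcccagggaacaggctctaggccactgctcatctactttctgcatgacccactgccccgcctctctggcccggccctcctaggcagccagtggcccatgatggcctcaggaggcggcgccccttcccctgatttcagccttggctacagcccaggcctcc

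The distal window holds 16 CpG pairs and a GC content of 60.8%, and the proximal window 4 CpG pairs and 58.0%, where the median GC content of all 32851 RefSeq windows of this length was 52.4%. CCAAT and GGGCGG are in the distal window and in neither strand of the proximal window, and TATAAA is in neither window. Of all windows 33.8% hold CCAAT, 32.7% GGGCGG and 12.4% TATAAA. A match is a description of letters and says nothing of a factor bound there.

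Got2 was split at its last intron. Got2-201 had 10 of 29 complete reads in replicate 1 and 46 of 69 in replicate 2. An NNC chain, equal in every other intron, had 18 and 21 reads and set the last intron at chr8:95865248-95866816, where Got2-201 has chr8:95865252-95866820. Both ends of the intron are moved by the same 4 bases, so the intron keeps its length. A further 24 and 37 reads of Got2 were on single-exon Genomic models.

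Unannotated chains were otherwise rare and mostly single reads. Of 400 NIC and NNC chains of the 36 genes, 314 were seen in 1 library only and 289 had a single read. With at least 5 summed reads and a read in both libraries there were 37, in 18 genes. Of these 16 used annotated sites only and 21 had an unannotated site (among them 2 Idh3g chains deposited as NIC, with 10 and 15 and with 4 and 1 reads, that share the shifted site of the leading chain), which in 12 was within 4 bases of an annotated one. Examples are Dlst, with 10 and 9 reads at a site moved by 3 bases, and Idh3a, with 7 and 9 reads at a site moved by 2 bases and 12 and 17 reads at one moved by 24. Sucla2 held 6 such chains, the most read of them a NIC chain that leaves out an exon, with 11 and 10 reads.

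Other genes of the pathway, from lists chosen with earlier results of these data known, are given for context. Of the subunits of succinate dehydrogenase, Sdha had 1179 and 1217 reads and Sdhd 622 and 712, and both were higher in replicate 2. Sdhb had 1046 and 967 reads and Sdhc 118 and 116, and neither was called. Sdhaf4, an assembly factor of the enzyme, had 145 and 78 reads and was lower, a call lost with TMM factors. Of the genes that attach lipoic acid to the 2-oxoacid dehydrogenases, 0 of 5 tested were higher and 1 was lower, Glrx5, an iron-sulfur cluster protein, with 962 and 521 reads (median -0.37). With ERCC reads the call on Glrx5 was lost, 1 was higher, and the median was 0.22.

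Of the branched-chain and 2-oxoadipate dehydrogenase genes, whose complexes use Dld too, 2 of 5 tested were higher (median 0.47; 4 of 5 with ERCC reads), Bckdha with 245 and 275 reads and Bckdhb with 209 and 257. Of the mitochondrial and plasma membrane carriers, 1 of 8 tested was higher and 1 lower (median 0.03), against 3 and 1 with TMM factors and 5 and 0 with ERCC reads (median 0.61). The 2 called with gene reads are the aspartate-glutamate carriers of the malate-aspartate shuttle: Slc25a13, known from liver, had 25 and 56 reads, and Slc25a12, known from muscle and brain, 106 and 45, a call lost with ERCC reads.

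Of the enzymes around the cycle 8 of 20 were higher and 2 lower (median 0.30), and with ERCC reads 12 and 1 (median 0.89). The higher ones included genes known from hepatocytes, among them Cps1 and Pck1, which are also on the hepatocyte list, with Cps1 of the urea cycle at 4 and 731 reads, Gldc of glycine cleavage at 3 and 147, Gls2, the liver glutaminase, at 4 and 136, and Pck1, the cytosolic enzyme that makes phosphoenolpyruvate, at 369 and 682. Ldha and Ldhb, the lactate dehydrogenase subunits, had 1203 and 1708 and 375 and 442 reads. The lower ones were Me1, the cytosolic malic enzyme that makes NADPH, with 1007 and 380 reads, and Acly, which splits citrate in the cytosol, with 2299 and 1263, the latter call lost with ERCC reads. Idh1, the cytosolic NADPH source among the 36 genes, was lower in the same library, as were the cortex markers. The part of the cortex share in these values was not tested.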

How the data were processed

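Long-read RNA-seq of 2 adrenal gland libraries was used. Per the file headers and the notes deposited with them, the authors deposited for each library a table of read counts per transcript model and a transcript annotation on mm10 built on GENCODE M21, with TALON classes. The counts are whole reads, unscaled. For aligner, versions and read filters the sources used here give nothing. The 36 genes, lists and tests were chosen with earlier results of these data known.

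Counts were summed per gene over all classes, without spike-ins, and scaled to CPM. With 1 library a side edgeR's quasi-likelihood test could not be fitted, and genes reaching 20 summed reads were tested with the exact binomial test (scipy 1.17.1, Benjamini-Hochberg, 0.05). Log2 ratios have 0.5 reads added and counting standard errors. A gene at 0 reads was set a limit of 3 counts, 2.82 and 3.17 CPM. PCR copies cannot be told from separate molecules, and intervals, limits and p-values cover counting error only. TMM and the exact test with an assumed coefficient of variation came from edgeR 4.0.16 and size factors from DESeq2 1.42.0. Pseudogenes were aligned with blastn 2.17.0. Known transcripts were matched between libraries by identifier, others by chain of introns. The tests were checked on data simulated with counting error only, which cannot vouch for calls between libraries that differ beyond it. All 36 genes have reads printed or counted, transcripts are named that lead a gene or hold 10% of its complete reads in both libraries, and unannotated chains that reach 5 summed reads in both. RefSeq promoters matched 33 of 36 genes. A further gene of the pathway is not reported here.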

Additional observations from a re-analysis of the deposited data

Results flagged for a closer look

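Reads outside the gene counts lay over 5 of the genes on the opposite strand, in unannotated loci, above a limit of 3 counts in both libraries. Over Pdp2, a phosphatase of pyruvate dehydrogenase, there were 79 such reads in replicate 1 and 81 in replicate 2, all of them unspliced, against 12 and 11 reads of the gene. Over Idh1 there were 21 and 9, over Pdk4 8 and 11, and over Pcx and Ogdh 6 and 4 each. Over all 36 genes the opposite-strand reads numbered 184 and 139.

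Processed pseudogenes were also above that limit in both libraries. Mpc1-ps had 20 reads in replicate 1 and 207 in replicate 2, and Got2-ps1 had 8 and 28.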

How the results depend on the processing

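No paired analysis was possible because both libraries belong to a single group. The 15 higher and 2 lower genes became 22 and 1 with TMM factors, 22 and 1 with DESeq2 size factors, 26 and 0 (26 in all) with ERCC reads, 19 and 1 without the reads of hepatocyte and muscle markers, 14 and 1 with no minimum of reads, and 0 and 0 (0 in all) with an assumed coefficient of variation of 0.2 in edgeR's exact test, where all 17 calls were lost. The counts were again 15 and 2 with a minimum of 10 or 50 reads and with complete transcripts only, where Pdk2 lost its call and Pcx gained one, and the pseudogenes' reads, added after seeing the data, gave 16 and 2. With ERCC reads 8 log2 ratios went from below to above 0: Pdhx 0.20, Idh3g 0.53, Mdh1 0.48 and Got1 0.46, which were called under at least 1 of both scalings, and Pdk3 0.13, Pdp1 0.40, Pck2 0.47 and Me2 0.42, which were not. Over all genes 2071 were then called higher and 170 lower. Of the same 9211 genes, 790 were higher and 1646 lower with gene reads. These calls were 1093 and 643 with TMM, 1075 and 656 with DESeq2, and 917 and 1021 without the marker reads. With no minimum they were 877 and 1423 of 18111 genes. At a minimum of 10 reads they were 881 and 1632 of 11279, and at 50 reads 619 and 1635 of 6220. With the assumed variation 513 genes were called, 446 higher and 67 lower. Adding ISM reads to the leading share left 0 members called. Unannotated chains numbered 86 at 2 reads and 20 at 10 reads. For class shares, the spread over 2 libraries cannot judge either library alone, because such a move always falls below it. The Known share of all members was 80.9% in replicate 1 and 82.5% in replicate 2. In Got2 it was 16.1% and 40.4%, and in Pcx 49.4% and 61.5%. Depth limits the phosphatases, Pdk1, Pdk3 and Ogdhl, with 6 to 34 reads a library. The cause of these changes was not tested.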
